A study of Mus musculus with 12 samples.

Results

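Embryonic globin genes and genes of red cell development were followed across cultured fetal mouse kidneys that were wildtype or had beta-catenin activated. The set held 8 genes, chosen by name with earlier results of these data known. They were the embryonic globins Hbb-y, Hba-x and Hbb-bh1, the haem synthesis gene Alas2 and the membrane genes Slc4a1 and Epb42. The others were the transcription factor Klf1 and the erythropoietin receptor Epor. All 8 of 8 were on the array, through 15 of 22690 probe sets that the platform annotation ties to a single gene symbol, out of 12393 genes measured.

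Red cells of the early embryo arise in the yolk sac, enter the circulation while they still have a nucleus, and fill with haemoglobin built from embryonic alpha-like and beta-like chains. Later red cells, made in the fetal liver and then the bone marrow, use adult chains. The switch between the gene sets, and the maturation of the cells, depend on GATA1, KLF1 and erythropoietin signalling. Tissue taken from an embryo can carry red cells in its vessels, and a kidney in culture has no blood supply.

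The study had 12 arrays of total RNA, 6 from wildtype kidneys and 6 from kidneys labelled beta-catenin activated and described as carrying tumors, all of the C57BL/6 strain. Both groups came from litters whose mothers had been given tamoxifen into the peritoneum (2 mg for each 40 g of weight) at 10.5 days post coitum. The kidneys were taken at the same age and cultured for 3 to 4 days on membranes, in medium with transferrin, insulin and selenium; the labels do not say which array had which time. The labels give neither the altered allele nor the Cre line, nor whether any arrays shared an animal or were pooled, so p-values measure only the spread between these samples, which may be technical.

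The numbers in the sample titles fall into 2 runs, a lower and a higher one, and their meaning is not given. Each run held 3 wildtype arrays and 3 activated arrays, replicates 1 to 3 of each genotype in the lower run and replicates 4 to 6 in the higher. Over all genes the leading axis of variation (24.7% of the variance) placed the lower run between -27.1 and -15 and the higher run between 17 and 22.9. The title run, the culture time and any other feature that went with the run cannot be told apart. The log2 ratio of 5' to 3' signal of control transcripts, a measure of RNA integrity, ranged over -2.21 to -0.26 in the lower run against -2.41 to -1.05 in the higher, and activated replicate 2 was the array at -0.26. Fetal kidney markers Six2, Foxd1 and Wt1 were above background, as were 10 of 12 measured kidney markers.

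Signals are given as deposited intensities, on a linear scale with 2% trimmed means of about 250.1 on every array. Differences are given on the scale of quantile-normalised log2(intensity + 16), which understates those of dim genes. Background was taken from 27 bacterial control probe sets, for transcripts that mouse cells do not make, which reached at most 29.1 as an intensity and 5.45 on the log2 scale. Levels were compared within a probe set only, since brightness differs between probe sets for reasons other than RNA amount.

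The promoters of Hbb-y, Hba-x and Epor are shown because the globins fell with the run and the receptor passed no test. All 3 hold CACCC and a GATA motif (AGATAA or TGATAA), as the windows of Alas2 and Klf1 do. Each window is 250 bases before the gene's start, from RefSeq on build GRCm38.p6, written 5′ to 3′ on the gene's strand. Capitals mark the motifs searched on both strands: CACCC, to which KLF1 is known to bind, the GATA motifs AGATAA and TGATAA, and CCAAT; the motifs share no bases in these windows. Hbb-y lies on the minus strand of chromosome 7 (chr7:103853208-103853457), Hba-x on the plus strand of chromosome 11 (chr11:32276350-32276599) and Epor on the minus strand of chromosome 9 (chr9:21963577-21963826).
Hbb-y: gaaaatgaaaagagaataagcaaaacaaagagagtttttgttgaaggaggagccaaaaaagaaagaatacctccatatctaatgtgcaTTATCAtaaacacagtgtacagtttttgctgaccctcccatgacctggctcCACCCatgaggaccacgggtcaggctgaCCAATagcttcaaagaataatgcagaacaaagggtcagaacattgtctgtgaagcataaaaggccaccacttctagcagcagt
Hba-x: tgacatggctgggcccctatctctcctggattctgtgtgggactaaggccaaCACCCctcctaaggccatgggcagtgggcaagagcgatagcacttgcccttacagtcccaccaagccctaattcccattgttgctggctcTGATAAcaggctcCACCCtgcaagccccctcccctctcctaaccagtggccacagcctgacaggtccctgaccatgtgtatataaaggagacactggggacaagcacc
Epor: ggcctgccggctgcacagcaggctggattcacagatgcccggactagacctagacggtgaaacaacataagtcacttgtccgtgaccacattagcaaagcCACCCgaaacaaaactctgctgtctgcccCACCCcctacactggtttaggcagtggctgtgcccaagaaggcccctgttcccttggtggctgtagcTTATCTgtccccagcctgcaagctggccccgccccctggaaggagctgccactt

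Hbb-y had TGATAA, read on the opposite strand, 162 bases before the start, then CACCC at 111 and CCAAT at 83. Hba-x had CACCC at 198 and 95 with TGATAA at 108, and Epor had CACCC at 150 and 121 with AGATAA on the opposite strand at 54. A window was at hand for 6 of the 8 genes (these 3, Alas2, Epb42 and Klf1), and all 6 held a GATA motif. Of 32851 windows of the same length over all genes, 16.6% held AGATAA or TGATAA, 52% held CACCC (5 of the 6 windows here) and 33.8% held CCAAT (2 of the 6, Hbb-y and Klf1). A match describes the letters only.

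All 3 embryonic globins were lower in the higher run, in wildtype and in activated kidneys alike. They were the 3 largest falls among the 12393 genes with a probe set of their own. Probe sets annotated to several adult globin genes were outside that ranking and fell as well, at -2.72, -2.88, -2.98 and -3.98 over both genotypes. In the same order their run differences were -2.31, -2.38, -2.24 and -3.73 in wildtype kidneys. They were larger in activated kidneys, at -3.13, -3.39, -3.72 and -4.23. None of these probe sets passed the interaction of genotype and run, where 0.155% of all probe sets passed. With genotype in the model, 3 of 8 genes passed an adjusted p of 0.05 (limma, Benjamini-Hochberg over all genes), all 3 lower in the higher run, where 4.19% of all genes tested fell and 11.1% passed in either direction. Between genotypes, 0 of 8 passed, where 0.0242% of all genes passed. The 8 genes were chosen with earlier results of these data known, so these counts describe the set and do not test it. In bulk samples such as these, fewer red cells and less globin RNA per cell cannot be told apart.

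Hbb-y encodes the beta-like chain known as epsilon-y, a beta-type chain of yolk sac red cells. In the lower run its intensity was 10986, 13555 and 11508 in wildtype replicates 1 to 3 and 10829, 9245.5 and 12381 in activated replicates 1 to 3. In the higher run it was 2652.6, 2347.3 and 2791.5 in wildtype replicates 4 to 6 and 2328.5, 1318.3 and 2578.4 in activated replicates 4 to 6. Every array of the lower run was above every array of the higher run, and the genotypes overlapped within each run. On the log2 scale the mean went from 13.30 ± 0.07 to 11.20 ± 0.43 (SD, n = 6 each), a difference of -2.10 (SE 0.14; 95% interval -2.40 to -1.80; 4.28-fold lower; adjusted p = 1.76e-07, limma).

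Hba-x encodes zeta-globin, the embryonic alpha-like chain, and lies on another chromosome from the beta-like genes. Its intensity in the lower run was 983.42, 380.0 and 661.08 in wildtype replicates 1 to 3 and 578.8, 467.81 and 565.76 in activated replicates 1 to 3. In the higher run it was 132.95, 140.13 and 160.24 in wildtype replicates 4 to 6 and 105.76, 94.5 and 134.68 in activated replicates 4 to 6. The runs did not overlap. On the normalised scale all 3 activated arrays of the higher run lay below its 3 wildtype arrays. The share of all genes with such a split there was not counted. By deposited intensity, activated replicate 6 (134.68) was above wildtype replicate 4 (132.95). In the lower run the genotypes overlapped. The log2 mean went from 9.24 ± 0.45 to 7.14 ± 0.20 (SD, n = 6 each), a difference of -2.11 (SE 0.17; 95% interval -2.47 to -1.74; 4.31-fold lower; adjusted p = 1.45e-06, limma).

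Hbb-bh1 encodes the beta-h1 chain, which is made earliest in the primitive red cell lineage. Its intensity in the lower run was 434.99, 237.33 and 230.38 in wildtype replicates 1 to 3 and 252.42, 139.21 and 306.64 in activated replicates 1 to 3. In the higher run it was 28.4, 4.37 and 20.7 in wildtype replicates 4 to 6 and 25.002, 3.33 and 29.5 in activated replicates 4 to 6. All 6 arrays of the lower run were above background. In the higher run 1 of 6 exceeded 29.1, the highest control of any array, which came from the lower run; 2 of 6 exceeded 5.45 after normalisation, and 3 of 6 the highest control of their own array, which was 13.4 to 20.8 there. The log2 mean went from 8.08 ± 0.58 to 5.06 ± 0.58 (SD, n = 6 each), a difference of -3.02 (SE 0.29; 95% interval -3.64 to -2.39; adjusted p = 7.32e-06, limma). That fit is 8.09-fold lower; the lower run's mean was 6.16-fold above the control limit of 5.45, so the fold beyond that rests on signal near background.

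**Figure D1:**
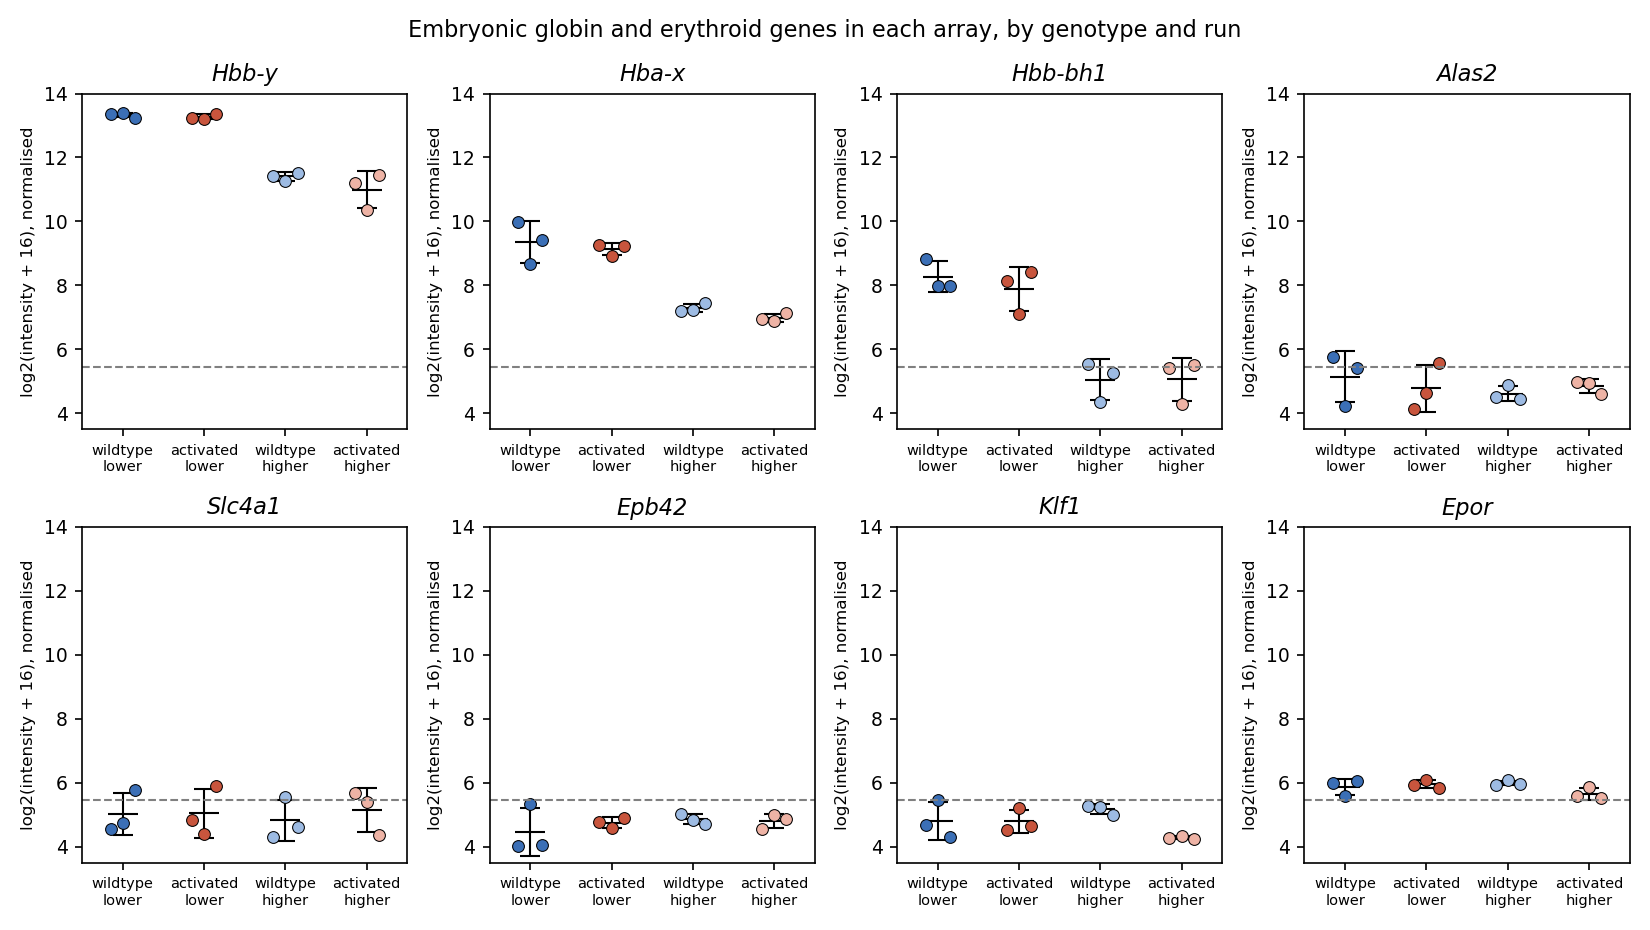
Normalised log2(intensity + 16) of the 8 genes in each of the 12 arrays, grouped by genotype and title-number run; points are arrays, horizontal bars the mean and whiskers the SD over 3 arrays, and the dashed line the highest bacterial control at 5.45. The 3 globins drop from the lower to the higher run in both genotypes, from 13.30 to 11.20 for Hbb-y, while Alas2, Slc4a1, Epb42 and Klf1 scatter around or under the dashed line and Epor stays just above it.

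The fall was present in each genotype on its own. Among wildtype arrays 3 of 8 genes passed, the 3 globins, all lower, where 5.16% of all genes passed and 1.64% were lower. The differences were -1.92 for Hbb-y (SE 0.19, adjusted p = 3.83e-05, limma), -2.07 for Hba-x (SE 0.25, adjusted p = 0.000214) and -3.21 for Hbb-bh1 (SE 0.42, adjusted p = 0.000474). Among activated arrays the same 3 of 8 passed, where 4.91% of all genes passed and 1.51% were lower, with -2.27 for Hbb-y (SE 0.19, adjusted p = 9.12e-06, limma), -2.15 for Hba-x (SE 0.25, adjusted p = 0.00014) and -2.82 for Hbb-bh1 (SE 0.42, adjusted p = 0.00111). The difference between these falls did not pass for any of the 8 genes, where 0.331% of all genes passed the interaction of genotype and run: it was -0.35 for Hbb-y, -0.08 for Hba-x and 0.38 for Hbb-bh1, each with an adjusted p of 0.999 (limma). The run went with 93.2% of the variance of Hbb-y over the 12 arrays, 91.6% of that of Hba-x and 89.1% of that of Hbb-bh1, against a median of 11.2% over all genes. All 3 globins had runs that did not overlap with the higher run below, which 1.95% of all genes had.

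No embryonic globin passed a test between activated and wildtype kidneys. Over all arrays Hbb-y was 12.37 ± 1.06 in wildtype and 12.13 ± 1.30 in activated kidneys (SD, n = 6 each), Hba-x 8.32 ± 1.21 and 8.06 ± 1.19, and Hbb-bh1 6.66 ± 1.83 and 6.48 ± 1.66; these SDs hold the run difference. With the run in the model the difference, activated minus wildtype, was -0.23 for Hbb-y (95% interval -0.53 to 0.07; adjusted p = 0.689, limma). It was -0.27 for Hba-x (-0.63 to 0.10; adjusted p = 0.713) and -0.18 for Hbb-bh1 (-0.81 to 0.44; adjusted p = 0.907), and 0 of 8 genes passed in this fit, where 0.105% of all genes passed. All 3 values were below 0 and all 3 intervals include 0. Within the lower run the differences were -0.05, -0.22 and -0.38 for Hbb-y, Hba-x and Hbb-bh1, with 0 of 8 genes passing where 0.597% of all genes passed. Within the higher run Hbb-y was -0.41 (SE 0.24, adjusted p = 0.858, limma) and Hba-x -0.31 (SE 0.17, adjusted p = 0.851), while Hbb-bh1 was 0.0087 (SE 0.40, adjusted p = 0.999); 0 of 8 passed where 0.00807% of all genes passed. Hba-x was 7.29 ± 0.13 in the wildtype and 6.98 ± 0.13 in the activated kidneys of that run (SD, n = 3 each). That difference was not past 0.05 before adjustment either (unadjusted p = 0.0992, limma). The share of all genes whose genotypes lay as far apart in that run was not counted. Ordered by group mean, both groups of the lower run stood above both groups of the higher run for each of the 3 globins, and the genotypes of a run, the neighbours in that order, passed no test of their difference.

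**Figure D2:**
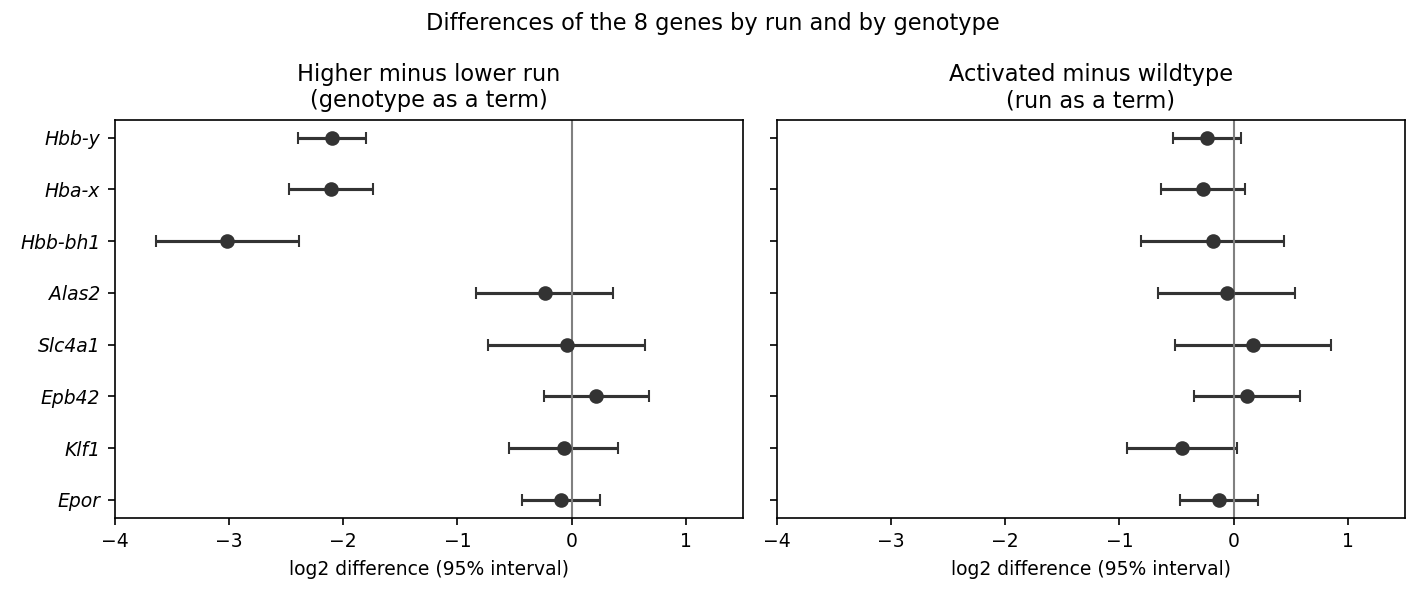
Fitted log2 differences of the 8 genes with 95% intervals over 12 arrays, higher minus lower run on the left (genotype as a term) and activated minus wildtype on the right (run as a term). On the left the 3 globin intervals lie wholly below -1 and the other 5 include 0; on the right all 8 intervals include 0.

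The probe sets of a globin agreed in direction and differed in size. For Hbb-y, 1436823_x_at, whose values are given above, and 1436717_x_at fell by 2.10 and 2.07 on the log2 scale, while 1450621_a_at fell by 3.85 (14.4-fold lower, adjusted p = 4.21e-09, limma). The last of these read 4271.4, 4106.9 and 5006.2 in wildtype and 4553.0, 3754.8 and 4985.6 in activated kidneys of the lower run. In the higher run it read 376.68, 283.18 and 382.0 in wildtype and 286.78, 130.79 and 299.53 in activated kidneys. The gap between 1436823_x_at and 1450621_a_at was 1.27 ± 0.14 on the log2 scale in the lower run against 3.02 ± 0.13 in the higher (SD, n = 6 each), so the size of the Hbb-y fall depends on the probe set by more than the spread between arrays. For Hbb-bh1 the 3 probe sets fell by 3.12, 3.02 and 2.03 on the log2 scale. Within the higher run they did not order the arrays alike: wildtype replicate 5 and activated replicate 5 were the lowest on 1437990_x_at and the highest on 1450736_a_at (33.2 and 37.7). In the array maker's naming an x marks a probe set with probes that can match other sequences; its part in the gap was not tested.

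Adult globin chains closely resemble each other in sequence. Their signal was not used here to tell early from later red cells. Of 10 listed adult globin and chaperone genes, 3 had a probe set of their own, and 0 of 3 passed by run: Hbb-b2 was at -0.44, Hba-a2 at -0.33 and Hba-a1, under background, at 0.13. A second Hbb-b2 probe set, 1427866_x_at, differed by -1.19 (adjusted p = 0.00295, limma). It was dim, at 17.6 to 64.1 in the lower run and 1.62 to 11.6, all under background, in the higher. Its x marks probes that can match other sequences. A further 4 probe sets are annotated to several adult globin genes, so no single gene can be named, and they were looked at after the values had been seen, in a fit of 22626 probe sets of which 8.38% passed by run. Of them 1428361_x_at read 6274.2 to 10096 in the 6 arrays of the lower run against 833.62 to 1718.2 in those of the higher run. Its run difference was -2.72 (adjusted p = 1.05e-07, limma), and the other 3 were at -2.98, -3.98 and -2.88. All 4 had runs that did not overlap, as the 3 embryonic globins had. The share of all 22626 probe sets with such runs was not counted.

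**Figure D3:**
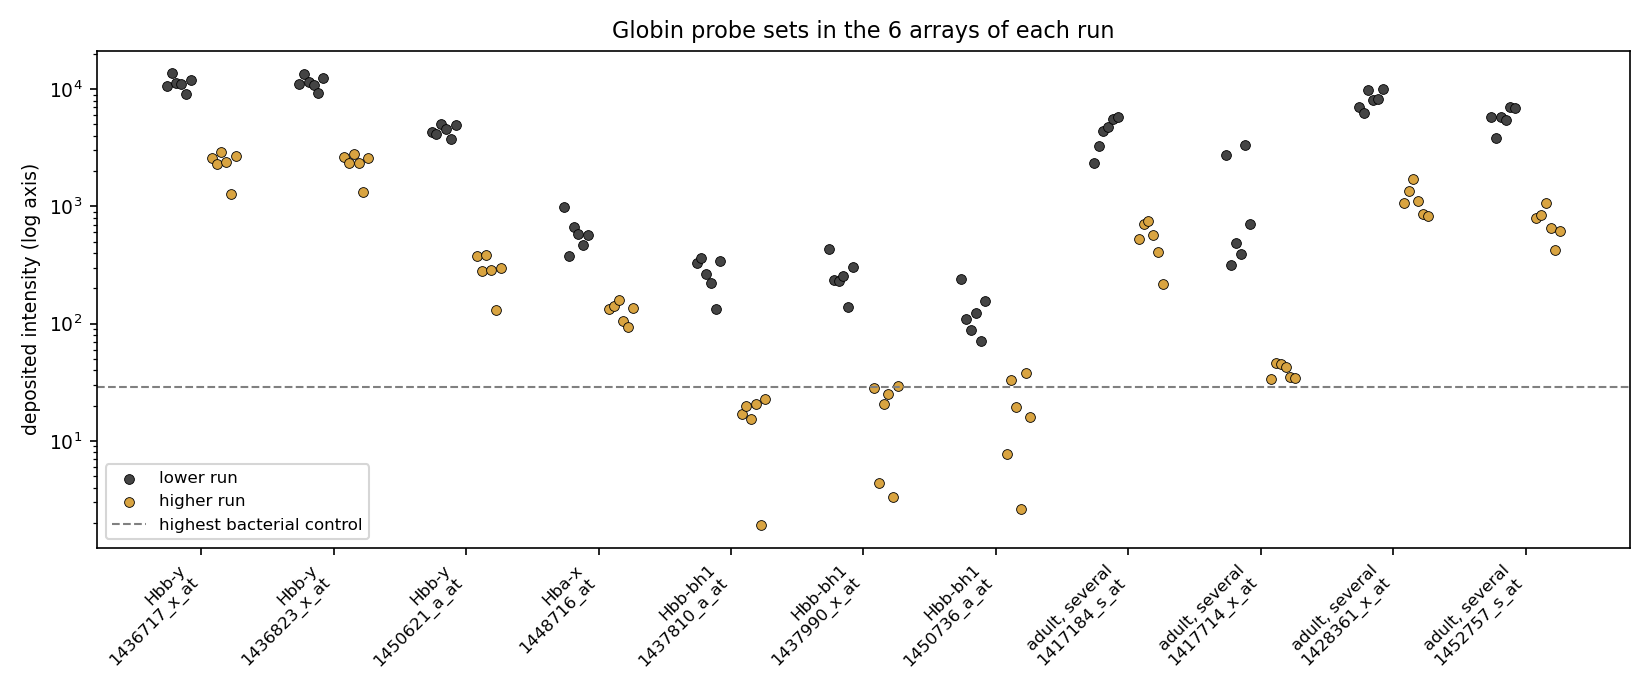
Deposited intensity on a log axis of the 7 embryonic globin probe sets and the 4 probe sets annotated to several adult globin genes; each point is an array, 6 in each run, and the dashed line is the highest bacterial control at 29.1. In all 11 probe sets the runs are apart, and the gap is wider in 1450621_a_at than in the other 2 probe sets of Hbb-y.

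The other erythroid genes were near or under background in these kidneys. Alas2, which makes the first enzyme of haem synthesis in red cells, was above the control signal in 2 of 12 arrays, with a lowest, median and highest intensity of 1.70, 11.9 and 35.5. Slc4a1 (the anion exchanger band 3, also known in acid-secreting cells of the mature kidney collecting duct) was above it in 4 of 12 (3.49, 13.5 and 40.2). By 1431743_a_at and 1434502_x_at, its other probe sets, Slc4a1 was above the control signal in 0 of 12, with medians of 1.40 and 9.75. Epb42, whose product ties band 3 to the membrane skeleton, was above it in 1 of 12 (0.228, 12.5 and 29.8), and by its other probe set, 1417338_at, in 0 of 12 (median 2.56). Klf1, which encodes the erythroid factor that binds CACCC motifs, was above it in 1 of 12 (2.80, 8.40 and 33.8).

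At this brightness a change in these 4 genes was hardly measurable, and none passed in any comparison. By run, Alas2 was at -0.23 (SE 0.28), Slc4a1 at -0.04 (SE 0.32), Epb42 at 0.22 (SE 0.22) and Klf1 at -0.07 (SE 0.22), with adjusted p from 0.603 to 0.963 (limma). By 1417338_at Epb42 had the other sign, at -0.12 (adjusted p = 0.775, limma). Klf1 read 20.4, 22.4 and 14.6 in wildtype and 3.25, 3.98 and 2.80 in activated kidneys of the higher run. Those groups did not overlap, and the share of all genes split in this way in that run was not counted. All 6 values were under 29.1, and 2 of them were above the highest control of their own array. Its fitted difference there was -0.89 (SE 0.19, unadjusted p = 0.00142, adjusted p = 0.437, limma). In the lower run the Klf1 values of the genotypes overlapped, and the interaction was at -0.87 (SE 0.40, adjusted p = 0.807).

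Epor, the receptor through which erythropoietin keeps red cell precursors alive, was above the control signal in 12 of 12 arrays. In the lower run it read 44.2, 38.1 and 50.9 in wildtype and 44.9, 61.8 and 38.2 in activated kidneys. In the higher run it read 43.4, 53.4 and 44.7 in wildtype and 30.7, 39.0 and 30.3 in activated kidneys. The runs overlapped, at 5.92 ± 0.19 and 5.83 ± 0.22 (SD, n = 6 each), with a difference of -0.09 (SE 0.16; 95% interval -0.43 to 0.25; adjusted p = 0.796, limma). With the run in the model the genotype difference was -0.12 (SE 0.16, adjusted p = 0.876), made of 0.09 in the lower run, with overlapping groups, and -0.33 in the higher run, where the activated arrays were all below the wildtype arrays. The difference between runs in that effect was -0.42 and did not pass (adjusted p = 0.999). How many of all genes had genotypes that did not overlap in the higher run was not counted.

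The wider erythroid programme passed the test by run about as often as all genes did. Probe sets annotated to several adult globin genes, all lower in the higher run, are outside this count. Over 7 lists of erythroid genes, 76 of 95 listed memberships were measured; by run 8 rose and 2 fell, where 6.94% of all genes rose and 4.19% fell, and by genotype over all arrays 0 rose and 0 fell. The median run difference was -0.33 for the 3 measured adult globins, -0.11 for haem synthesis (0 of 11 passed), -0.18 for red cell membrane genes and -0.26 for erythroid transcription factors. It was 0.11 for iron handling and 0.098 for late red cell genes, against -0.02 over all genes. Gata1, the central factor of red cell development, had a mean log2 signal of 5.02, Nfe2 5.00, Rhag 4.55 and Hemgn 4.35, all under the control limit of 5.45. A part of these lists is therefore only bounded: 6 of 13 red cell membrane genes, 7 of 13 late red cell genes and 9 of 13 transcription factors had a mean above background.

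Among transcription factors, Myb, which holds precursors in a dividing state, fell by 0.66 on the log2 scale (adjusted p = 0.0441, limma), with -0.97 in wildtype and -0.35 in activated kidneys. Bcl11a, a repressor of embryonic beta-like globins, fell by 1.09 over both genotypes (adjusted p = 0.0453, limma), but was at -0.15 in wildtype (SE 0.32, adjusted p = 0.881) and -2.02 in activated kidneys (SE 0.32, adjusted p = 0.00169). The interaction for Bcl11a, -1.88, did not pass (adjusted p = 0.134). Foxo3, a factor of red cell maturation, rose by 0.46. These calls were near the threshold: leaving out a single array ended the call in 8 of 12 cases for Myb, 9 of 12 for Bcl11a and 4 of 12 for Foxo3, with adjusted p up to 0.104, 0.104 and 0.0625. Bcl11a was also higher in activated than in wildtype kidneys of the lower run, by 2.03 (SE 0.34, adjusted p = 0.029, limma), the only one of the 76 memberships that passed there. That call was lost when any of the 6 arrays was left out (adjusted p up to 0.169).

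Of 11 measured genes of erythropoietin signalling, 4 rose in the higher run and 0 fell, where 6.94% of all genes rose and 4.19% fell. Their median was 0.12. Socs3, a feedback inhibitor of cytokine receptors, rose by 2.35 (SE 0.08; 5.09-fold; adjusted p = 3.49e-10, limma). Stat5a, a transcription factor activated by the receptor, rose by 0.95 (adjusted p = 0.00163), Socs2, another feedback inhibitor, by 0.70 (adjusted p = 0.0146), and the kinase gene Pim1 by 0.51 (adjusted p = 0.011). These genes also answer other cytokine receptors. With a gene's probe sets averaged in place of the brightest, Stat5a and Pim1 no longer passed. In iron handling 1 of 12 passed, near the 6.94% of all genes that rose: Slc40a1, the iron exporter ferroportin, which rose by 0.51 (adjusted p = 0.0065). The membrane protein gene Cd47 rose by 0.82, and Car2, a carbonic anhydrase gene also expressed in kidney, by 1.04 (adjusted p = 0.000434).

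Markers of other cells moved with the run as well. Macrophage markers rose in 10 of 14 genes, where 6.94% of all genes rose, with a median of 1.07, among them Lyz2 (2.12), Mrc1 (1.39) and Csf1r (1.07); their summed intensity was 1056.9 to 1876.3 over arrays of the lower run and 2436.4 to 3591.3 over those of the higher. Endothelial markers had a median of -0.23 with 2 of 15 lower, where 4.19% of all genes fell: Plvap (-0.68, adjusted p = 0.00928, limma) and Esam (-0.53, adjusted p = 0.0486), and summed to 1438.6 to 2543.8 and 1495.4 to 2209.2. Of 9 measured yolk sac and liver markers, 3 had a mean above background, and Afp (2.38, adjusted p = 9.06e-06) and Ttr (1.34, adjusted p = 0.0265) rose; the list summed to 114.66 to 169.54 over arrays of the lower run and 244.68 to 641.0 over those of the higher. Megakaryocyte markers (0 of 8 passed, 3 above background, sums 191.42 to 398.88 and 270.91 to 309.35) and neutrophil markers (0 of 8, 1 above background, sums 105.91 to 304.02 and 124.78 to 670.19) showed no called change. Leaving out a single array ended the call in 10 of 12 cases for Esam and 6 of 12 for Ttr, and in none for Lyz2, Mrc1, Csf1r, Plvap and Afp. The part of any of these cells in the globin fall was not tested.

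**Figure D4:**
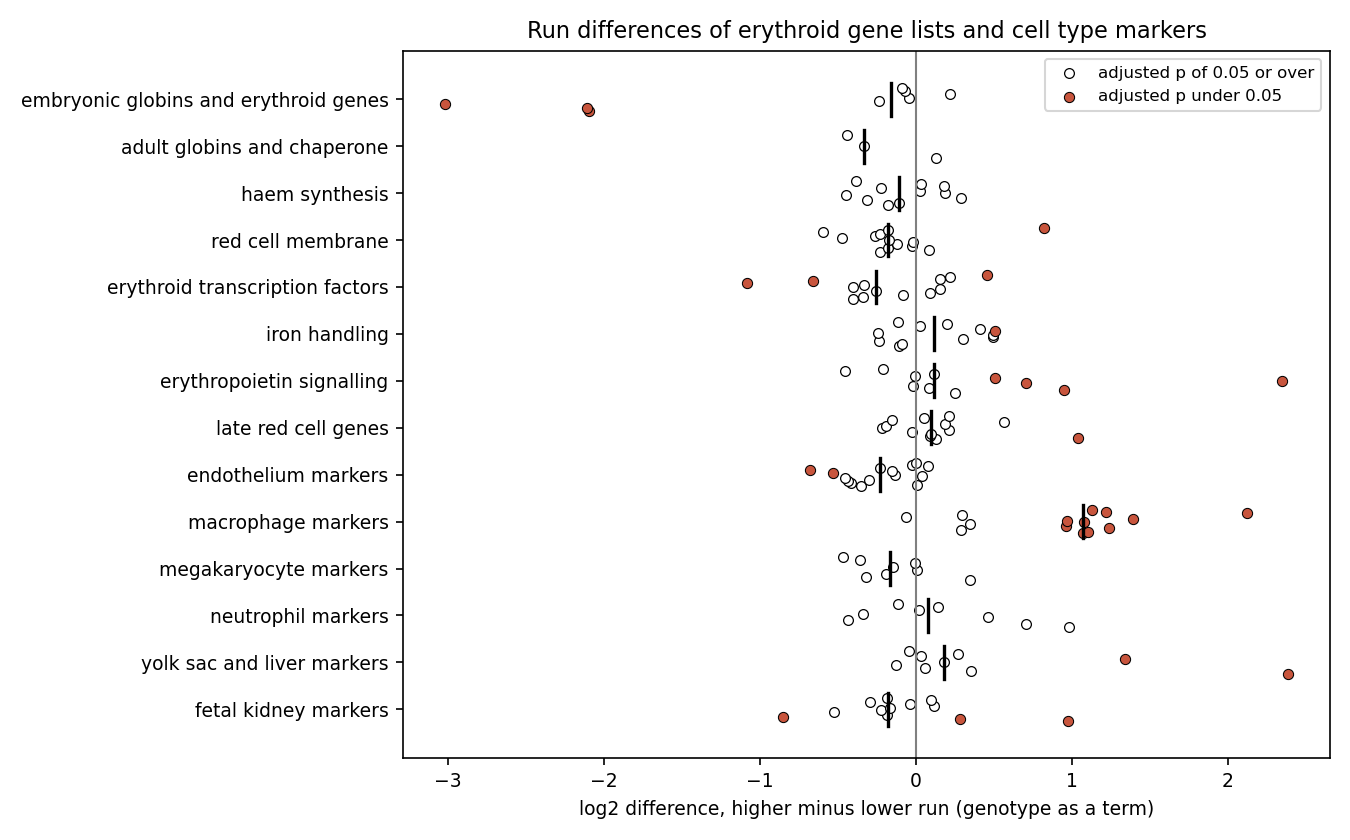
Log2 difference between the higher and the lower run for every measured gene of the 13 lists and the 8 embryonic globin and erythroid genes, with filled points at an adjusted p under 0.05 (limma) and black bars at the list median. The 3 embryonic globins lie to the left of every other gene shown, the macrophage list is shifted to the right (median 1.07), and most erythroid lists are centred near 0. Probe sets annotated to several adult globin genes are not shown.

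Within the groups formed by genotype and run, Hbb-y and Hba-x, both above background on every array, had a Pearson's r of 0.17 and a Spearman's rho of 0.46 over the 12 arrays after the group means were removed. Hbb-bh1, whose higher-run values were near background, had r = 0.67 and rho = 0.64 with Hbb-y and r = 0.53 and rho = 0.64 with Hba-x. These are descriptions over 12 arrays that share normalisation and RNA preparation.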

How the data were processed

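Per the labels' protocols, RNA came from a Trizol extraction and was labelled for Affymetrix 3' expression arrays. The deposited table, made by the authors, gives an intensity on a linear scale per probe set and array, 0.0693 to 23037.5, with the summary software not given in the sources used here. The 12 arrays were grouped by the genotype label and by title number.

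Computed here: quantile-normalised log2(intensity + 16), and 1 probe set per gene symbol (the highest mean over all arrays), from 20380 probe sets with 1 symbol; 691 with several symbols, 1555 with none and 64 controls were left out. Fits used limma 3.58.1 with a variance trend in R 4.3.3, with p-values adjusted by Benjamini-Hochberg over 12393 genes and called under 0.05. They were tested on simulated data in which only bright genes were changed. That test does not cover genes as dim as Hbb-bh1, Epor, Alas2, Slc4a1, Epb42 and Klf1. The number of arrays limits the precision. The genes named are the 8 members, up to 4 per list by lowest adjusted p for genotype or run; the 8 most like the globin mean are left out, since Hbb-bh1 was near background in the higher run. Csf1r, Gata1, Nfe2, Rhag and Hemgn were added after their values were seen. Members and the 13 lists were chosen with earlier results of these data known. The control limit of each array was looked at after seeing the data. Alternatives changed the pseudocount, normalisation, filter, probe set rule and arrays used.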

Additional observations from a re-analysis of the deposited data

Results flagged for a closer look

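Of 32 groups of 4 or more arrays examined for the 8 genes, 2 had an array set apart from the rest by Dixon's ratio; chance gives about 1 in 20. Hbb-y in the higher run was lowest in activated replicate 5, at 10.35 on the log2 scale, with the next array at 11.2 (gap over range 0.727). Epor among wildtype kidneys was lowest in replicate 2, at 5.585, with the next array at 5.946 (gap over range 0.739).

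Signal outside the genes tested came from the 4 probe sets annotated to several adult globin genes. Their run differences, higher minus lower, were -2.98 for 1417184_s_at, -3.98 for 1417714_x_at, -2.72 for 1428361_x_at and -2.88 for 1452757_s_at, with adjusted p of 7.41e-06, 0.000125, 1.05e-07 and 1.95e-07 (limma). For 1417714_x_at, wildtype replicate 1 (2745.9) and activated replicate 2 (3307.2) read far above the other arrays of the lower run (314.16 to 706.93).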

How the results depend on the processing

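The count of the 8 genes called was the same in 136 of 136 recomputations over the comparisons and settings, and the run differences of the 3 globins kept their direction and stayed past the threshold in 192 of 192. Leaving out each array in turn gave -2.18 to -1.93 for Hbb-y, -2.26 to -1.98 for Hba-x and -3.21 to -2.84 for Hbb-bh1; other settings gave -3.85 to -2.06, -2.23 to -2.05 and -4.01 to -2.03. Values of single genes were recomputed for the 3 globins and Epor, but not for Alas2, Slc4a1 or Epb42. Klf1 was included only for genotype over all arrays, genotype in the higher run and the interaction. Of these 589 values, 24 changed sign, none of them past the threshold. Their ranges when each array was left out were, for genotype over all arrays, -0.48 to 0.13 (Hbb-y), -0.51 to 0.063 (Hba-x) and -0.65 to 0.25 (Hbb-bh1); for the lower run, -0.57 to 0.082 (Hba-x), -0.65 to 0.017 (Hbb-bh1) and -0.059 to 0.18 (Epor); for the interaction, -0.39 to 0.26 (Hba-x) and -0.0080 to 0.77 (Hbb-bh1); for the run in wildtype Epor, -0.025 to 0.22; and for Hbb-bh1 in the higher run, -0.34 to 0.39. That last value was 0.0087 as reported, -0.10 over all probe sets averaged, -0.0291 with a pseudocount of 1, -0.15 with array weights, -0.071 with the 5' to 3' signal as a covariate, and -0.21 and -0.11 by 1437810_a_at and 1450736_a_at. With probe set 1450621_a_at the Hbb-y genotype difference in the lower run was 0.0097. The cause was not tested. Over the settings 687 to 1972 genes passed by run (1379 as reported) and 0 to 13 by genotype (3). No paired analysis was possible because the replicate numbers only name the arrays. Signal over background limits Alas2, Slc4a1, Epb42 and Klf1. Those genes and Epor had no value under the stricter filter on dim genes, so the counts under that filter rest on the 3 globins.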
